A study of Mus musculus with 12 samples.

Results

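The genes described here are 10 members of the TNF superfamily, 6 that encode ligands (Tnf, Tnfsf9, Tnfsf10, Tnfsf13b, Tnfsf15, and Ltb) and 4 that encode receptors (Tnfrsf1a, Tnfrsf1b, Tnfrsf11a, and Fas). They were chosen with earlier results of these data known and found by their Ensembl identifiers among the 43626 genes of the count tables, and all 10 passed the filter on low counts. RNA-Seq was carried out on BMDMs, which are macrophages grown in culture from mouse bone marrow, to ask how the human milk oligosaccharide 3′SL, made of lactose and sialic acid, alters the response to LPS, a product of gram-negative bacteria sensed by TLR4. The 12 libraries fell into 4 conditions of 3, which were cells given PBS, 3′SL (HMO in the labels), LPS, or LPS + 3′SL. Per the study's text, 3′SL was given at 100 μg/mL and LPS at 10 ng/mL for 6 hours. The labels give injections of 3′SL into mice as the treatment, whereas their extraction protocol speaks of incubated BMDMs. The study's text calls its RNA-Seq samples biologically independent, while strain, genotype, age, and number of donor mice of these cells are not given in the sources used here. P-values measure only the spread between these libraries.

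TNF superfamily ligands are mostly made as membrane proteins that act as trimers, and several, TNF itself among them, are shed from the cell by proteases. Their receptors cluster on binding and recruit adaptor proteins. TRAF adaptors lead to NF-κB and MAP kinase activation, and receptors with a death domain, such as Fas and TNFR1, can also lead to caspase activation and cell death. In macrophages TNF is a classic early product of TLR4 signaling, and its mRNA is short-lived because proteins bind AU-rich repeats after its stop codon. In GENCODE M21 (GRCm38) the ligand genes are Tnf at chr17:35199381-35202007 (minus strand), Tnfsf9 at chr17:57105325-57107757 (plus strand), Tnfsf10 at chr3:27317028-27342427 (plus strand), Tnfsf13b at chr8:10006467-10039072 (plus strand), Tnfsf15 at chr4:63727084-63745113 (minus strand), Ltb at chr17:35194439-35196320 (plus strand). The receptor genes are Tnfrsf1a at chr6:125349362-125362484 (plus strand), Tnfrsf1b at chr4:145213463-145246870 (minus strand), Tnfrsf11a at chr1:105780718-105847981 (plus strand), Fas at chr19:34290666-34327772 (plus strand). All 10 are protein-coding.

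The sequence that carries this property is shown for Tnf, the member with the most ATTTA pentamers per base after the stop codon. For each gene, the annotated transcript with the most bases after the stop codon was used (GENCODE M21, GRCm38). Tnf had 8 ATTTA in the 764 bases after the stop codon. The 30 bases of this part of Tnf with the most such repeats held 5 of them, in capitals.

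Tnf AU-rich stretch: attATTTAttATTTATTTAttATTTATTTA

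Tnfsf10 also had 8 ATTTA, but in 3998 bases. Tnfsf13b had 6 in 3631 bases, Tnfrsf11a had 5 in 3115, and Tnfsf15 had 4 in 2505. Tnfsf9, Tnfrsf1b, and Fas had 2 each, and Ltb and Tnfrsf1a had 0. Of 21364 genes, 21.3% had 5 or more ATTTA, and the median was 1.

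Promoters are shown for the 6 members that the results turn on most. Tnf and Ltb are neighbors on chromosome 17 at very different levels, Tnfsf10 and Tnfsf15 had the largest changes with LPS, Fas was the member whose libraries were separate in each comparison with and without 3′SL, and Tnfrsf11a was a well-measured member not called with LPS. The sequences are from RefSeq (GRCm38.p6) and run 5′ to 3′ along the gene up to its RefSeq start, without bases that GENCODE M21 places inside the gene. Capitals mark the motifs found.

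Tnf, chr17:35202008-35202257, minus strand: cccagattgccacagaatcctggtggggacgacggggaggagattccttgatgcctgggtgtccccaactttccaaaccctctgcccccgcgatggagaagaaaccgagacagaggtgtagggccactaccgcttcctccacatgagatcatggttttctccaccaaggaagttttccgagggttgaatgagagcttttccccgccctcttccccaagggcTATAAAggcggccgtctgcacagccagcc
Ltb, chr17:35194257-35194438, plus strand: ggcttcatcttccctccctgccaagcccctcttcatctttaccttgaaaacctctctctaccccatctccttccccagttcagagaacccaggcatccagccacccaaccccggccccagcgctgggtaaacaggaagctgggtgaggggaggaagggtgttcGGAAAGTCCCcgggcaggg
Tnfsf10, chr3:27316827-27317027, plus strand: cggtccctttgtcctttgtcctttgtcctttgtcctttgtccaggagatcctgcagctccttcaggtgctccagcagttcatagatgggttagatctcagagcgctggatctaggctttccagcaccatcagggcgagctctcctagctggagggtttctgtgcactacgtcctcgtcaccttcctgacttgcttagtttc
Tnfsf15, chr4:63745114-63745309, minus strand: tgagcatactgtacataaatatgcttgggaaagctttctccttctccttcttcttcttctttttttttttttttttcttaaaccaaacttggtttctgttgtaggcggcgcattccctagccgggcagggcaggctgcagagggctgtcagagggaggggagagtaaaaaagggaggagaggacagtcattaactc
Fas, chr19:34290409-34290658, plus strand: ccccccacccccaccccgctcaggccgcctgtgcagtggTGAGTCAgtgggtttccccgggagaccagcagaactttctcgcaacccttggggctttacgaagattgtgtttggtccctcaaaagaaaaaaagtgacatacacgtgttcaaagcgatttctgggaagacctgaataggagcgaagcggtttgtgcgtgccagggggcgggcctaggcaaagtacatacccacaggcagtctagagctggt
Tnfrsf11a, chr1:105780473-105780717, plus strand: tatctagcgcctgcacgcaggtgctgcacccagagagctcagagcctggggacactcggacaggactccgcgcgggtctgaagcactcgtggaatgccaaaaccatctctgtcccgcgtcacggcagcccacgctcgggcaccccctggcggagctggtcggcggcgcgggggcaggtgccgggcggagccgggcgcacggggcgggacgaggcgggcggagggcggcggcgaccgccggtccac

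RefSeq promoters were matched by symbol for 9 of the 10 members (all but Tnfsf9), with a pair of promoters for Tnfsf13b. In the 250 bases before each RefSeq start, both strands were searched for the NF-κB consensus, GAAANNGAA (the core of the interferon-stimulated response element), TGANTCA (AP-1), GAGGAAGT (PU.1), and TATAAA, a core promoter element. All distances are from the RefSeq start. These motifs occurred in 7.25%, 7.13%, 6.75%, 2.44%, and 12.4% of 32851 promoters, respectively. Tnf had a TATAAA, 29 bases before the start. Ltb had an NF-κB match 87 bases before the start, on the other strand, and Fas had a TGANTCA at 211 bases. In Ltb the 68 bases next to the RefSeq start are not printed above, since GENCODE M21 places them inside the gene. Tnfrsf1b had a GAAANNGAA at 9 bases, on the other strand, and the second promoter of Tnfsf13b had a GAAANNGAA at 16 bases and a TGANTCA at 127. Tnfsf10, Tnfsf15, Tnfrsf1a, and Tnfrsf11a had none of these letters in this window, which says nothing about the factors. Tnfrsf11a had the highest GC content of the windows, at 73.6%, and Tnfsf15 the lowest, at 46.8%, against a median of 52.4% over all promoters. The gap between Ltb and Tnf was 3060 bases, and between Tnf and the ligand gene Lta 1157 bases, all on chromosome 17.

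Between 20411741 and 26851890 reads were counted on genes per library. Macrophage marker genes summed to 17600 to 30000 CPM (counts relative to the TMM-scaled library size), with Lyz2 at 12200 to 15700 CPM. Of the markers of other cells, Cd3e and Cd3g of T cells and Eomes of NK cells were at 0 in all 12 libraries and Pax5 of B cells in 11. The summed levels were 9.19 to 19.1 CPM for the T cell list, most of it Cd4, 0.733 to 2.75 for B cells, 0 to 1.23 for NK cells, 0.23 to 1.61 for mast cells, 7.38 to 29.3 for endothelium, 0.947 to 15 for dendritic cells, and 69.6 to 500 for neutrophils. The libraries fell into 3 sets of 4 consecutive library numbers, each with 1 library per condition, by the correlation of their residuals. The labels name no batch. The sum of stromal markers was 529 to 616 CPM in set 1, 22.5 to 42 in set 2, and 54 to 96.7 in set 3. Values of single libraries are always given in the order of sets 1, 2, and 3.

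LPS raised 8 of the 10 members, 5 ligands and 3 receptors, and lowered 0. Over all 14308 genes tested, 18.3% were called higher and 20.2% lower with LPS against PBS, where called means at least 1.5-fold with an adjusted p under 0.05 (edgeR's quasi-likelihood test, Benjamini-Hochberg adjustment over all genes tested). In the same 8 members every LPS library was above every PBS library, which held for 27.3% of all genes. The median log2 fold change of the members was 3.04, against −0.0607 over all genes. The filter on low counts used all 12 libraries. Tnfsf15 had at most 6 reads per library with PBS and 11 with 3′SL, so it could be tested through its LPS-treated libraries alone. The counts of members raised, here and in the presence of 3′SL, and this median may in part be set by the filter. In bulk RNA, fewer cells of a type and less RNA per cell cannot be told apart. The macrophage marker sum was 17600 to 20700 CPM with PBS and 26000 to 29500 with LPS, and the dendritic cell (0.947 to 1.48 and 5.04 to 14.1 CPM) and endothelium lists (7.38 to 13.4 and 18.5 to 28.6) were also higher, without overlap. Few genes carried the last 2 sums. Over all libraries, Xcr1 reached 14 CPM, while Flt3, Zbtb46, and Siglech stayed at or below 1.32. Cdh5 reached 18.5 CPM and Kdr 11.3, while Pecam1 stayed at or below 5.37 and Tek was at 0 in 10 libraries. The sums of neutrophil (69.6 to 258 and 111 to 500), stromal (22.5 to 529 and 42 to 608), T cell (9.19 to 12.1 and 10.4 to 17.9), and B cell markers (1.81 to 2.7 and 0.733 to 2.03) overlapped, and those of NK (0.431 to 1.21 and 0 to 0.145) and mast cells (0.877 to 1.61 and 0.244 to 0.737) were lower. Their part in the changes with LPS was not tested.

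Tnf, the founding cytokine of the family, had 15.4, 10.98, and 47.7 CPM with PBS and 1044, 1179, and 591 CPM with LPS. The groups were far apart, and set 3 had both the highest PBS and the lowest LPS level. The log2 fold change was 5.25 ± 0.678 (SE, n = 3 against 3, adjusted p = 1.04e-04 by edgeR), 38-fold. Leaving out 1 library at a time gave 4.89 to 6.15, the highest without the PBS library of set 3.

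Tnfsf10 encodes TRAIL, a ligand that can trigger cell death through its receptors. It rose from 1.23, 1.23, and 2.60 CPM with PBS to 333, 336, and 441 CPM with LPS. Every set showed this rise, with a log2 fold change of 7.78 ± 0.528 (SE, edgeR adjusted p = 1.67e-06), 219-fold. By absolute change with LPS, Tnfsf10 ranked 46 among all genes tested.

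Tnfsf15 encodes TL1A, a costimulatory ligand. Its PBS libraries held 0, 6, and 0 reads, and its LPS libraries 327, 407, and 295 reads, which were 16.0, 19.7, and 18.1 CPM. A count of 0 allows up to 0.0861 CPM in the PBS library of set 1 and up to 0.101 CPM in that of set 3, for counting error only. The fitted log2 fold change was 7.98 ± 0.822 (SE, edgeR adjusted p = 2.19e-05), and since the PBS mean rests on 6 reads of 1 library, the size of this fold is poorly fixed. Without that PBS library the fitted value was 11.73.

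Tnfsf9 encodes 4-1BBL, which costimulates T cells. It rose from 4.28, 3.12, and 6.04 CPM with PBS to 24.0, 26.7, and 22.0 CPM with LPS. The log2 fold change was 2.43 ± 0.253 (SE, edgeR adjusted p = 2.35e-05). Of the exon bases of Tnfsf9, 14.9% overlap the noncoding gene Gm11110 on the other strand, which had 24 to 77 reads per library, and whether the counting used the strand is not given in the sources used here.

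Ltb and Tnfsf13b were measured from few reads. Ltb encodes lymphotoxin β, which anchors lymphotoxin α in the membrane, and it had 12, 14, and 6 reads with PBS and 25, 27, and 29 with LPS. The groups of Ltb did not overlap, and its log2 fold change was 2.04 ± 0.469 (SE, edgeR adjusted p = 0.0045). Tnfsf13b encodes BAFF, a survival factor of B cells, and had 21, 11, and 4 reads with PBS and 11, 16, and 9 with LPS. These overlapped, and the log2 fold change of Tnfsf13b was 0.72 ± 0.568 (SE, edgeR adjusted p = 0.334), which did not pass the test.

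Among the receptors, Tnfrsf1b had the highest level and Fas the largest change. Tnfrsf1b encodes TNFR2, the TNF receptor without a death domain. It had 302, 332, and 412 CPM with PBS and 3790, 4269, and 5095 CPM with LPS, and the within-set log2 changes were 3.65, 3.68, and 3.63. The fitted log2 fold change of Tnfrsf1b was 3.65 ± 0.313 (SE, edgeR adjusted p = 6.43e-06), 12.6-fold.

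Fas encodes the death receptor that binds Fas ligand. It rose from 3.22, 3.54, and 3.17 CPM with PBS to 62.9, 70.7, and 90.2 CPM with LPS. Its log2 fold change was 4.49 ± 0.245 (SE, edgeR adjusted p = 5.01e-07), 22.5-fold. The transcript of Fas ligand, Fasl, had at most 2 reads in any library.

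Tnfrsf1a encodes TNFR1, the TNF receptor with a death domain. It had 143, 143, and 193 CPM with PBS and 312, 354, and 460 CPM with LPS. This rise, with a log2 fold change of 1.24 ± 0.211 (SE, edgeR adjusted p = 6.82e-04), depended on the scaling. When libraries were scaled by their total counts only, the median of all genes was −0.71 with LPS against PBS, and the log2 fold change of Tnfrsf1a was 0.57 and no longer reached 1.5-fold.

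Tnfrsf11a encodes RANK, the receptor of the osteoclast factor RANKL. It had 142, 148, and 199 CPM with PBS and 140, 164, and 183 CPM with LPS, and these values overlapped. The log2 fold change of Tnfrsf11a was −0.006 ± 0.151 (SE, edgeR adjusted p = 0.981). With total counts it was −0.66 and called lower, close to the median of all genes in that scaling.

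**Figure D1:**
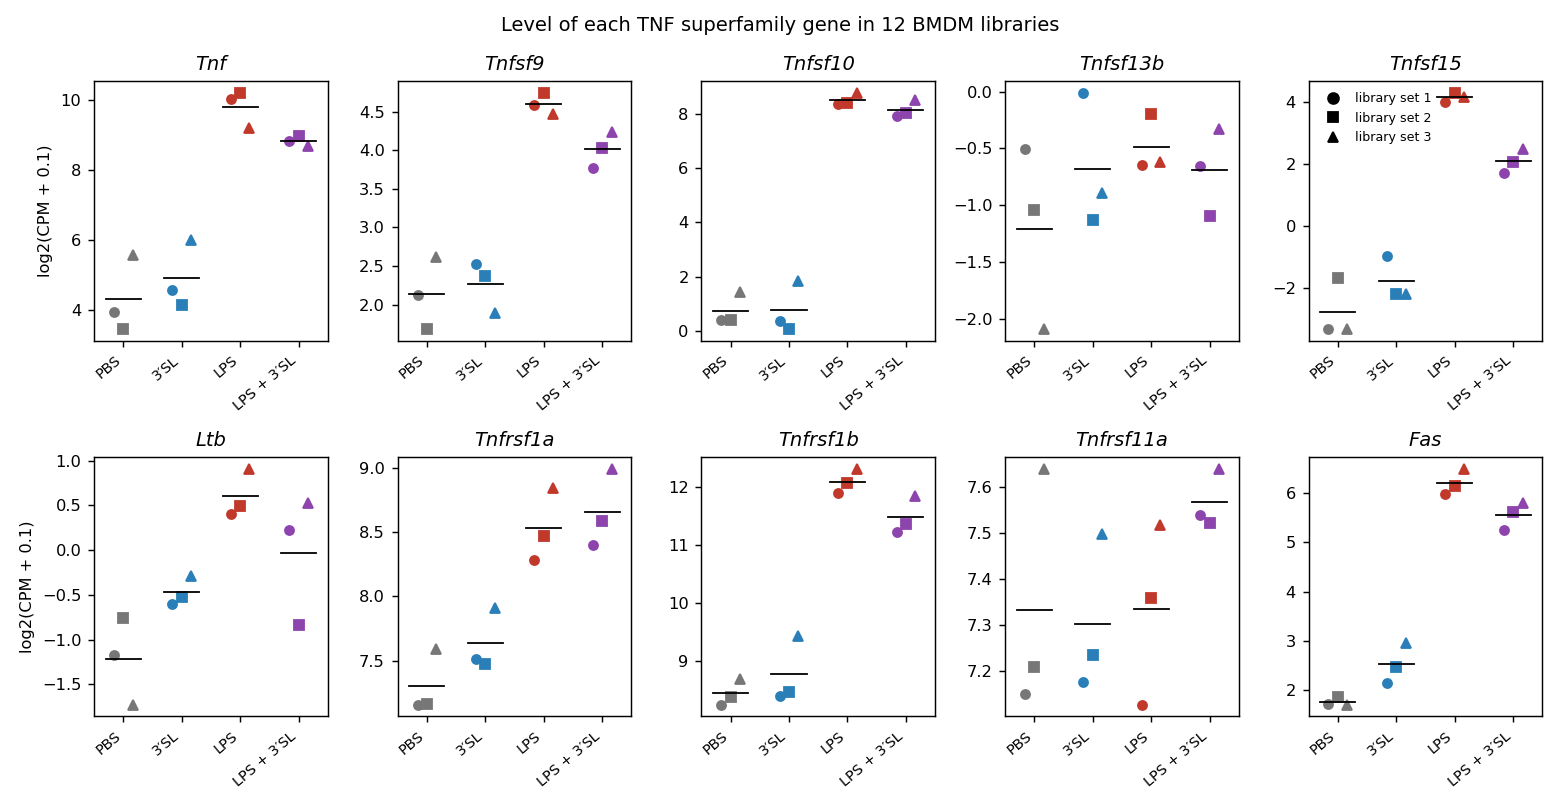
Level of each of the 10 genes in the 12 libraries on the scale log2(CPM + 0.1), 1 point per library with its shape giving the library set, and a line at the mean of the 3 libraries; each panel has its own axis. LPS and LPS + 3′SL libraries stand far above the others for Tnf, Tnfsf10, Tnfsf15, Tnfrsf1b, and Fas, while those of Tnfsf13b and Tnfrsf11a do not separate from PBS with LPS alone.

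Per kilobase of exon, the TNF receptors were the most abundant members in quiescent cells, with Tnfrsf1b at 91.4 CPM per kb and Tnfrsf1a at 61.6. Tnfrsf11a followed at 27.2 CPM per kb and Tnf at 15.1, and the ranges of these 2 genes overlapped. Tnfsf9 was at 3.47 CPM per kb and Fas at 1.61, and the rest were at 0.32 or below. With LPS, Tnfrsf1b remained first at 1150 CPM per kb (range 993 to 1330), and Tnf was next at 572 (range 360 to 719). Next came Tnfrsf1a at 145 CPM per kb, Tnfsf10 at 70.2, and Fas at 36.2. Fas overlapped in range with Tnfrsf11a at 27.1 CPM per kb, and the other neighbors in this order did not overlap.

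3′SL in the absence of LPS raised or lowered 0 of the 10 members by the edgeR fit without the library sets, where 0% of all genes were called. At an unadjusted p under 0.05, 1 member (Fas) and 1439 of all genes differed in this comparison. The fitted change was above 0 in 9 members and in 50.2% of all genes. In Fas and Ltb every 3′SL library was above every PBS library, which held in this direction for 9.02% of all genes. The median log2 fold change was 0.45 over the members and 0.00129 over all genes.

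Fas had 4.35, 5.45, and 7.67 CPM with 3′SL, against 3.17 to 3.54 CPM with PBS. The groups were separate, with a log2 fold change of 0.81 ± 0.224 (SE, edgeR unadjusted p = 0.00408, adjusted p = 0.33). With the library sets as a block in the model, 1.98% of all genes were called higher, and Fas was 1 of them (log2 fold change 0.78, adjusted p = 0.014). Without any 1 of the 3 sets, the block did not call Fas at 1.5-fold. Its changes within the sets were 0.44, 0.62, and 1.28, so the set with the largest change was set 3.

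Tnf had 23.8, 17.6, and 64.1 CPM with 3′SL, again with the highest level in set 3. These overlapped with PBS over all libraries, and the log2 fold change was 0.51 ± 0.573 (SE, edgeR adjusted p = 0.821). Inside each set Tnf was higher with 3′SL, by 0.63, 0.68, and 0.43 on the log2 scale. The neutrophil markers summed to 138 to 500 CPM in set 3, 139 to 226 in set 2, and 69.6 to 113 in set 1. Few genes carried these sums. Over all libraries, S100a9 reached 316 CPM, S100a8 147, and Camp 31.8, while Ly6g, Mpo, Elane, and Retnlg stayed at or below 6.04. The part of these markers in the Tnf level was not tested. In a fit with the block but without set 3, Tnf was the 1 member called, at 0.63 (adjusted p = 0.0222), where 1.36% of all genes were called higher.

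The other ligands had overlapping libraries or few reads. Tnfsf15 had 11, 3, and 3 reads with 3′SL against 0, 6, and 0 with PBS, which overlapped. Ltb had 15, 15, and 18 reads against 12, 14, and 6, with a log2 fold change of 0.84 ± 0.466 (SE, edgeR adjusted p = 0.594). Tnfsf13b had 24, 9, and 11 reads against 21, 11, and 4. Tnfsf9 (5.66, 5.09, and 3.62 CPM) and Tnfsf10 (1.19, 0.955, and 3.50 CPM) overlapped with their PBS libraries.

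Of the receptors, Tnfrsf1a had 182, 178, and 241 CPM with 3′SL and was higher in every set, by 0.35, 0.32, and 0.32 on the log2 scale. Tnfrsf1b had 337, 353, and 685 CPM, the highest of them in set 3. Its log2 fold change was 0.39 ± 0.282 (SE, edgeR adjusted p = 0.692). Tnfrsf11a had 144, 150, and 180 CPM, with a log2 fold change of −0.04 ± 0.151 (SE, edgeR adjusted p = 0.969).

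**Figure D2:**
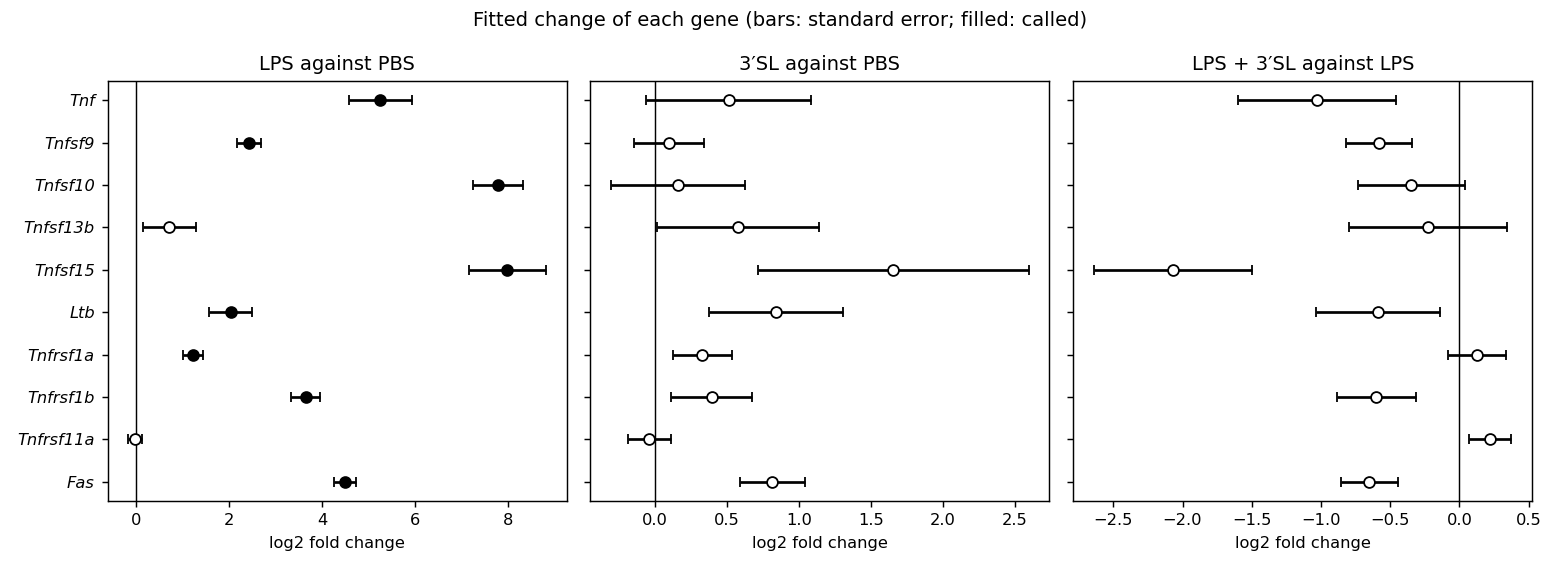
Fitted log2 fold change of each gene (point) with its standard error (bar) in 3 comparisons, with filled points for genes called by edgeR; the horizontal axes differ between panels. With LPS against PBS 8 points are filled, and with 3′SL 0 are filled in either panel, although 8 of 10 points lie below 0 for LPS + 3′SL against LPS.

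In LPS-stimulated BMDMs, 3′SL gave lower point estimates for 8 of the 10 members, all 6 ligands and 2 receptors. In the edgeR fit without the library sets, however, 0 of these passed the test, and 0% of all genes did. The fit with the sets as a block, also by edgeR, is given below. At an unadjusted p under 0.05, 3 members (Tnfsf15, Fas, and Tnfsf9) and 995 of all genes differed. In 5 members (Tnf, Tnfsf9, Tnfsf15, Tnfrsf1b, and Fas) every LPS + 3′SL library was below every LPS library, which held for 6.5% of all genes. In 1 member, Tnfrsf11a, every library was above, which held for 6.24% of all genes. The median log2 fold change was −0.58 over the members and −0.00788 over all genes. Over all genes, 48.7% of the fitted changes were above 0. Inside the sets, 7 members were lower in all 3, and Tnfrsf1a and Tnfrsf11a were higher in all 3. The share of all genes for this is not given here. Levels of many members were correlated over the libraries (r = 0.992 for Tnfrsf1b and Fas), so the members are not independent results.

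Tnfsf15 had the largest difference of the members. It had 327, 407, and 295 reads with LPS and 65, 89, and 104 with LPS + 3′SL, or 16.0, 19.7, and 18.1 CPM against 3.15, 4.09, and 5.58 CPM. All 3 libraries with 3′SL were far below the LPS libraries, at 19.8%, 20.8%, and 30.8% of the level in the same set. Its log2 fold change was −2.07 ± 0.569 (SE, edgeR unadjusted p = 0.00403, adjusted p = 0.311), and it ranked 54 among all genes tested by absolute change. DESeq2's Wald test called Tnfsf15 (adjusted p = 2.09e-05), where it called 0.461% of all genes lower, and no other member. The block called it as well (adjusted p = 0.0112). Leaving out 1 library at a time moved the edgeR change between −2.30 and −1.89.

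Tnf had 459, 506, and 412 CPM with LPS + 3′SL, below the 1044, 1179, and 591 CPM with LPS. These levels were 43.9%, 42.9%, and 69.8% of those in the same set, so set 3 stood apart. The log2 fold change was −1.03 ± 0.57 (SE, edgeR adjusted p = 0.833), and the SD over LPS libraries was 308 CPM, against 46.7 CPM with LPS + 3′SL.

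Fas had 37.8, 49.2, and 55.6 CPM with LPS + 3′SL, against 62.9, 70.7, and 90.2 CPM with LPS. It was at 60.0%, 69.6%, and 61.7% of the LPS level of its set, with a log2 fold change of −0.65 ± 0.209 (SE, edgeR unadjusted p = 0.0103, adjusted p = 0.438). Tnfrsf1b had 2374, 2637, and 3671 CPM against 3790, 4269, and 5095, or 62.6%, 61.8%, and 72.1% of the LPS level. For Tnfrsf1b the log2 fold change was −0.60 ± 0.283 (SE, edgeR adjusted p = 0.752). In both receptors every library with 3′SL was below the LPS range, and neither passed the adjusted threshold.

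With the library sets as a block, 0.762% of all genes were called lower, and Fas, Tnfrsf1b, and Tnfsf15 were among them (adjusted p = 0.0158, 0.0262, and 0.0112). These calls changed with the sets used, and each fit without a set has 4 libraries fewer. Without set 3 the block called these 3 genes together with Tnf (adjusted p = 7.73e-05) and Tnfsf9 (adjusted p = 0.00755), where it called 1.46% of all genes lower. Without set 1 or without set 2 it called 0 members. For Fas, as an example, the log2 fold change with the block was −0.65 ± 0.118 (SE). It was −0.61 ± 0.155 without set 1, −0.72 ± 0.171 without set 2, and −0.62 ± 0.0914 without set 3.

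Tnfsf9 had 13.6, 16.2, and 18.8 CPM with LPS + 3′SL, against 24.0, 26.7, and 22.0 CPM with LPS. The difference was smallest in set 3, and the log2 fold change was −0.58 ± 0.24 (SE, edgeR adjusted p = 0.653). Tnfsf10 had 245, 261, and 366 CPM against 333, 336, and 441, which overlapped, although it was lower inside every set, at 73.7%, 77.6%, and 83.1%. For Tnfsf10 the log2 fold change was −0.35 ± 0.384 (SE, edgeR adjusted p = 1). Ltb (22, 10, and 25 reads) and Tnfsf13b (11, 8, and 13 reads) overlapped with their LPS libraries.

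Tnfrsf1a had 337, 384, and 510 CPM with LPS + 3′SL and was at 108%, 108%, and 111% of its LPS level. Tnfrsf11a had 186, 184, and 199 CPM, just above the 140, 164, and 183 CPM with LPS. The log2 fold changes of these 2 receptors were 0.13 ± 0.208 and 0.22 ± 0.152 (SE, edgeR adjusted p = 1 and 0.948).

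**Figure D3:**
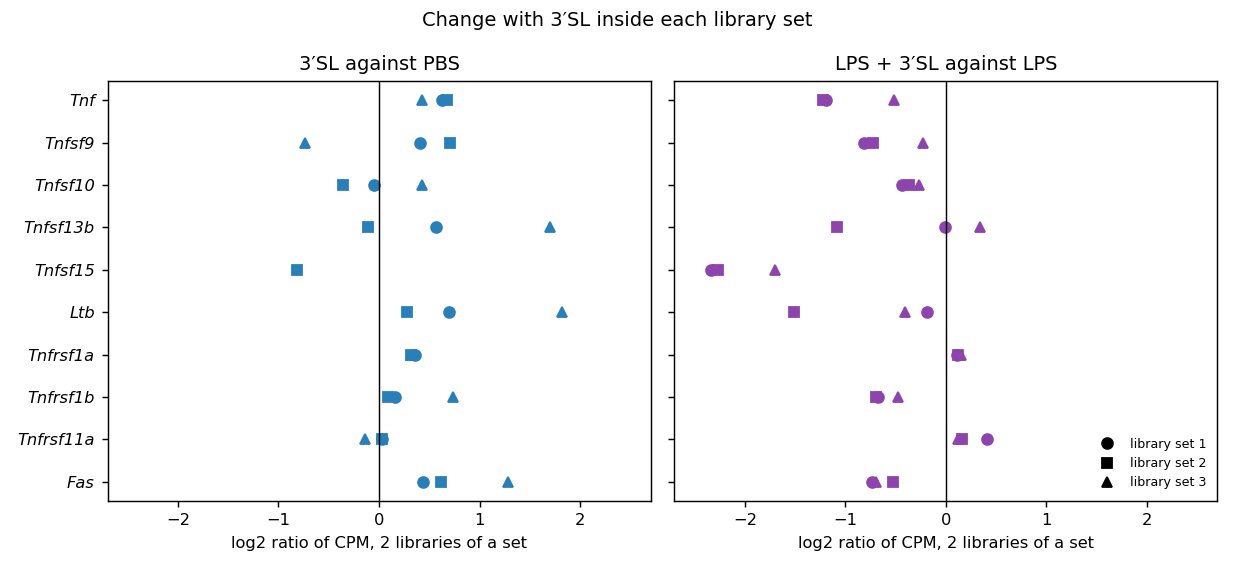
Log2 ratio of the CPM of 2 libraries of the same set for each gene, with 3′SL against PBS on the left and LPS + 3′SL against LPS on the right, where the shape gives the set; Tnfsf15 has 1 point on the left, because it had 0 reads in PBS of sets 1 and 3. On the right, Tnf, Tnfsf9, Tnfsf10, Tnfsf15, Ltb, Tnfrsf1b, and Fas lie below 0 in all 3 sets, and Tnfrsf1a and Tnfrsf11a above 0.

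A ratio of 2 genes within a library does not depend on the scaling between libraries. The reads per kilobase of Tnfrsf1b were 1.44, 1.57, and 1.45 times those of Tnfrsf1a with PBS and 1.25, 1.35, and 1.93 times with 3′SL. With LPS the ratio was 8.24, 8.17, and 7.51, and with LPS + 3′SL it was 4.78, 4.66, and 4.89. The means were 7.97 ± 0.403 and 4.78 ± 0.115 (SD, n = 3), and the 2 groups did not overlap. The ratio was chosen after the levels of both genes were known, and no test of it was run.

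**Figure D4:**
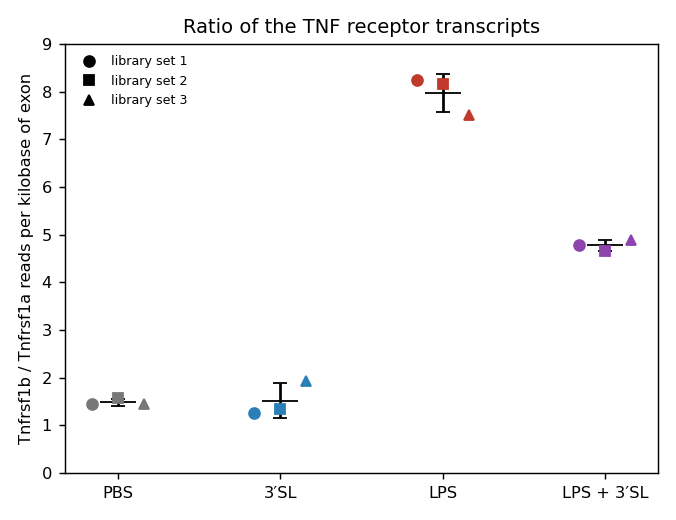
Ratio of Tnfrsf1b to Tnfrsf1a reads per kilobase of exon in each library (points, shape by library set), with the mean and SD of 3 libraries per condition. The LPS libraries lie between 7.51 and 8.24, and the LPS + 3′SL libraries between 4.66 and 4.89, between the LPS libraries and those without LPS.

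In the presence of 3′SL, LPS raised 7 of the 10 members (LPS + 3′SL against 3′SL), where 14.3% of all genes were called higher and 14.8% lower. These were the members raised by LPS alone except Ltb, and in 8 members the libraries were separate in this direction, as in 22.4% of all genes. This comparison has other libraries than LPS against PBS, and the values of both stand side by side. The log2 fold change was 3.71 ± 0.63 for Tnf, against 5.25 without 3′SL, and 4.26 ± 0.699 for Tnfsf15, against 7.98. For Fas it was 3.03 ± 0.229, against 4.49, for Tnfrsf1b 2.66 ± 0.3, against 3.65, and for Tnfsf9 1.75 ± 0.249, against 2.43. Tnfsf10 rose by 7.27 ± 0.519, against 7.78, and Tnfrsf1a by 1.04 ± 0.21, against 1.24. With total counts, where the median of all genes was −0.54 in this comparison, Tnfrsf1a was not called.

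The interaction tests whether the change with 3′SL was different with and without LPS. It was below 0 in 9 of the 10 members, and above 0 in 49.5% of all genes. However, edgeR called 0 members and 0% of all genes, with 872 genes and 3 members (Fas, Tnfsf15, and Tnfrsf1b) at an unadjusted p under 0.05. Fas had the lowest p of the members, with an interaction of −1.46 ± 0.307 on the log2 scale (SE, edgeR unadjusted p = 6.11e-04, adjusted p = 0.505) and values of −1.17, −1.14, and −1.97 within the sets. DESeq2 called Fas (adjusted p = 0.0167) and Tnfsf15 (adjusted p = 0.00722), where it called 0.252% of all genes in this direction. The value of Tnfsf15, −3.73 ± 1.1 (SE, edgeR), rests on 6 reads of 1 library with PBS and 3 to 11 reads per library with 3′SL. The block called Fas (adjusted p = 0.00886) and Tnfrsf1b (adjusted p = 0.024), where 1.29% of all genes were called in this direction. Without set 3 it called Tnf, Fas, Tnfrsf1b, Tnfsf9, and Tnfsf15, with 2.13% of all genes, and without set 1 or set 2 it called 0 members.

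The genes most like each member over the 12 libraries are given by Pearson's r of log2 CPM, as a description of libraries that share the LPS contrast and the sets. For Tnf these were Cebpd (r = 0.992), Caml, and Cdc42ep2. For Tnfsf10 they were Iigp1 (r = 0.999), Tor3a, and the receptor gene Cd40, and for Tnfsf15 Klf8 (r = 0.991), Crbn, and Rnf14. For Tnfrsf1b they were Il1b (r = 0.999), Tnip1, and Stx11, and for Fas Abi1 (r = 0.998), Lims1, and Psma4. Tnfsf13b and Tnfrsf11a, which were not called with LPS, had lower best values, 0.855 with Adgrv1 and 0.928 with Kcnn4.

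The rest of the pathway was read from 4 further lists. Of 12 other ligands, 8 had enough reads to be tested, and LPS raised 4 (Tnfsf4, Lta, Tnfsf8, and Tnfsf18) and lowered 1. The shares of all genes tested were 18.3% called higher and 20.2% called lower. The median log2 fold change of the 8 was 1.64. In every list the filter on low counts used all 12 libraries, so a gene could be tested through its LPS-treated libraries alone. Lta, for example, had at most 0.101 CPM with PBS and at least 0.635 CPM with LPS. The shares raised and the medians may in part be set by this filter. Tnfsf4, which encodes OX40L, a T cell costimulator, rose by 6.44 ± 0.994 on the log2 scale, from 0.226 CPM on average to 20.0 CPM (edgeR adjusted p = 3.5e-04). Lta, the lymphotoxin α gene beside Tnf, rose by 4.32 ± 0.994 (adjusted p = 0.00449) but had at most 17 reads. Tnfsf8, which encodes CD30 ligand and lies 86194 bases from Tnfsf15, rose by 3.21 ± 0.531 (adjusted p = 5.6e-04). Tnfsf18, which encodes GITR ligand, rose by 2.72 ± 0.746 (adjusted p = 0.0117), and was not called without the LPS library of set 3 (adjusted p = 0.0579). Tnfsf12, which encodes TWEAK and is named after its values were seen, was the 1 called lower, at −1.30 ± 0.159 (adjusted p = 7.11e-05), and 48.3% of its exon bases are shared with an annotated read-through gene, so its reads may be split. Cd40lg, Fasl, Cd70, and Eda had at most 11 reads in any library and were not tested.

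Of 24 other receptors, 16 were tested, and LPS raised 4 (Cd40, Tnfrsf8, Tnfrsf14, and Tnfrsf9) and lowered 5, with a median of −0.00905. Over all genes tested, 18.3% were called higher and 20.2% lower, with a median of −0.0607. Cd40, the costimulatory receptor of antigen-presenting cells, rose from 10.2 ± 3.31 to 958 ± 210 CPM (SD, n = 3), a log2 fold change of 6.56 ± 0.475 (SE, adjusted p = 2.44e-06). Tnfrsf8, the CD30 gene, rose by 4.32 ± 0.645 (adjusted p = 2.78e-04), and Tnfrsf14, which encodes HVEM, by 3.62 ± 0.227 (adjusted p = 1.18e-06). Tnfrsf9, which encodes 4-1BB, the receptor of the Tnfsf9 product, rose by 2.52 ± 0.809 (adjusted p = 0.0252), with at most 81 reads, and was not called without any 1 of the PBS libraries or without the LPS library of set 3 (adjusted p up to 0.111), nor with total counts (log2 fold change 1.81, adjusted p = 0.061) or with the block without set 1 (adjusted p = 0.0743). Those lowered, named after their values were seen, were Tnfrsf22 (−1.84), Tnfrsf21 (−1.37), Tnfrsf26 (−0.92), Tnfrsf23 (−0.70), and Tnfrsf13b (−0.69).

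All 26 genes of the receptor signaling list were tested, and LPS raised 14 and lowered 3, with a median of 0.85. The largest increases were in Traf1, a TRAF adaptor (6.09 ± 0.595), Mlkl, the executor of necroptosis (4.04 ± 0.274), Tnfaip3, which encodes the NF-κB inhibitor A20 (3.79 ± 0.392), and Cflar, which encodes the caspase-8 regulator cFLIP (3.50 ± 0.24). The 3 genes lowered, named after their values were seen, were Map3k14 (−0.97), Tab1 (−0.83), and the death receptor adaptor gene Fadd (−0.77). Of 7 ligand processing genes, LPS raised 4 and lowered 2, with a median of 1.07. Adam17, the protease that sheds TNF, rose by 1.82 ± 0.155 (adjusted p = 6.19e-06), and Rhbdf2, which encodes its partner iRhom2, by 2.86 ± 0.448 (adjusted p = 3.86e-04). Sppl2a, an intramembrane protease, rose by 2.27 ± 0.184 and Furin, a proprotein convertase, by 1.07 ± 0.201, or 0.39 with total counts, which was under 1.5-fold. Adam10 (−0.65) and Sppl2b (−0.60) were lower and are named after their values were seen. All of these are log2 fold changes from the edgeR fit in which 18.3% of all genes were called higher and 20.2% lower.

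**Figure D5:**
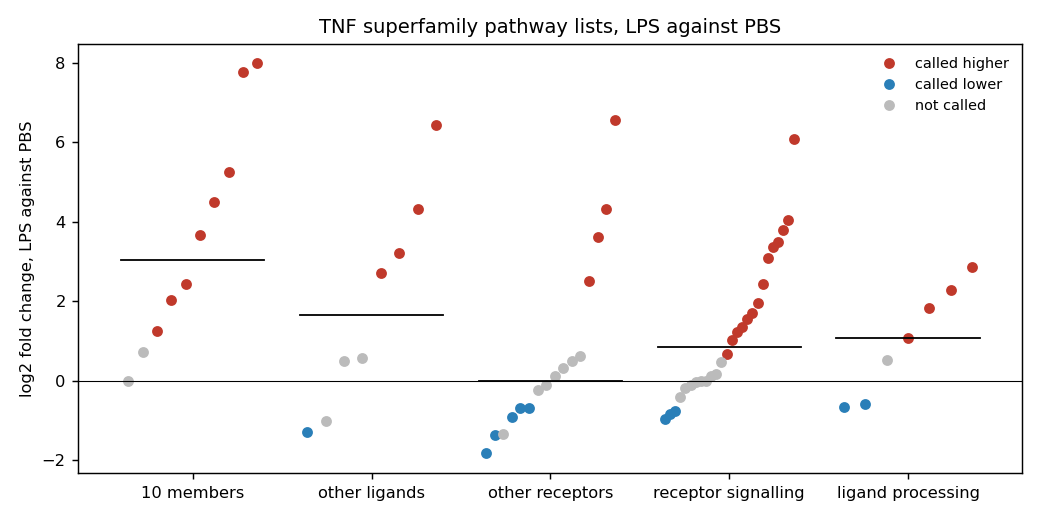
Fitted log2 fold change with LPS against PBS of each tested gene (points, sorted within a list), for the 10 members, 8 other ligands, 16 other receptors, 26 receptor signaling genes, and 7 ligand processing genes, with a line at the median of each list. The median is 3.04 for the members and lies between −0.00905 and 1.64 for the other lists. The members and lists were chosen with earlier results of these data known, so this difference in medians tests nothing about the members.

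For 3′SL without or with LPS, edgeR called 0 genes of these 4 lists, where it called 0% of all genes. With the library sets as a block, 406 and 207 of all genes were called in these 2 comparisons. Counts of these lists under the block are not given here. At an unadjusted p under 0.05, the counts for 3′SL against PBS were 2 of the other ligands, 0 of the other receptors, 6 of the receptor signaling genes, and 1 of the ligand processing genes, where 10.1% of all genes passed. For LPS + 3′SL against LPS they were 0, 1, 3, and 1, where 6.95% of all genes passed. The genes of these counts, all but the 6, are named after their values were seen. With 3′SL alone they were Tnfsf4 (log2 fold change 3.95 ± 0.954, from 0.105 to 0.371 CPM with PBS to 0.781 to 9.07 CPM, adjusted p = 0.266), Tnfsf12 (−0.44), and Sppl2a (0.42). With LPS + 3′SL against LPS they were Tnfrsf22 (0.64), Traf2 (−0.36), Traf5 (−0.52), Tnfaip3 (−0.87), and Adam17 (−0.39). The medians for LPS + 3′SL against LPS were −0.23, 0.07, −0.08, and 0.05 for the lists in that order. With 3′SL present, LPS raised 3 other ligands, 4 other receptors, 13 signaling genes, and 4 processing genes and lowered 1, 4, 3, and 1, where 14.3% of all genes were called higher and 14.8% lower. The genes with the largest changes there were Tnfsf8 (3.97 ± 0.577) and Lta (2.98 ± 0.942), Cd40 (5.94 ± 0.462) and Tnfrsf9 (3.78 ± 0.879), Traf1 (4.24 ± 0.543) and Mlkl (3.30 ± 0.265), and Rhbdf2 (2.02 ± 0.434) and Sppl2a (1.71 ± 0.181). Of these, Lta was not called without the 3′SL or the LPS + 3′SL library of set 2 or of set 3, nor with the block without set 2 (adjusted p up to 0.0843).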

How the data were processed

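RNA-Seq libraries of BMDMs were analyzed, 3 for each of 4 conditions taken from the labels. Per gene and library, the deposited values are read counts, whole numbers that the authors did not normalize. The submitters' processing notes name FastQC, Trimmomatic, STAR, HTSeq, and DESeq2, while versions, genome build, and the strand setting of the counting are not given in the sources used here. Libraries came from a stranded kit with polyA selection. Gene identifiers were matched, without version numbers, to GENCODE M21 (GRCm38), which named 42548 of 43626 genes and all 126 genes of the lists. Depth was 20411741 to 26851890 reads per library (median 23375851), without the rows of reads that fell on no gene. Libraries of a condition differed by more than sampling noise (lowest chi-square per gene 14.5) and were used as 1 replicate each. Floors of 3 counts cover counting error only.

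Counts were fitted in R 4.3.3 with edgeR 4.0.16 (filterByExpr, TMM factors, quasi-likelihood test, 1 mean per condition over 12 libraries, limma 3.58.1 loaded). The Benjamini-Hochberg adjustment covered 14308 genes. Calls needed at least 1.5-fold and an adjusted p under 0.05. Adjusted p-values without another tool or the block named are from the edgeR fit of 1 mean per condition. Where edgeR is named without the block, this fit is meant. The block fits used the same edgeR test with the library sets added to the model. Levels are CPM of TMM-scaled library sizes. Alternatives were DESeq2 1.42.0 (Wald test) or its size factors, total counts, 2 other filters on low counts, only the conditions compared, no fold minimum, the library sets as a block, the block without each set, and leaving out each library in turn. Residuals correlated at 0.596 on average inside the sets and at −0.346 across them. The sets were formed from these same correlations, so these values give no separate support for them. Sequences were read with Python 3.11.15 from RefSeq promoters and GENCODE transcripts.

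The members and gene lists were chosen with earlier results of these data known, and the library sets as well. All members are named, and of the other lists, the called genes with the largest changes and separate libraries, up to 4 per list with LPS against PBS and 2 in other comparisons. Genes outside this rule carry a remark in the text. For likeness, the 3 genes with the highest correlation of log2 CPM (prior count 2) are given.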

Additional observations from a re-analysis of the deposited data

Results flagged for a closer look

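Fas was the 1 member whose libraries were separate both with 3′SL alone and with 3′SL under LPS stimulation, in opposite directions. Inside each set, Tnf, Ltb, and Tnfrsf1b were also higher with 3′SL alone and lower with 3′SL under LPS stimulation. None of them had separate libraries in both comparisons. In Fas, every 3′SL library was above every PBS library, and every LPS + 3′SL library was below every LPS library. The test of this difference is the interaction, which was −1.46 on the log2 scale, with an unadjusted p of 6.11e-04 and an adjusted p of 0.505 by edgeR. DESeq2 gave an adjusted p of 0.0167 and the library set block 0.00886. The block gave 0.322 without set 1, 0.158 without set 2, and 0.00183 without set 3. The value was negative in all 3 sets. The interaction lay between −1.63 and −1.18 when 1 library at a time was left out. The basal levels of Fas rest on 94 to 193 reads per library.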

How the results depend on the processing

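The 8 members called with LPS against PBS, and the 7 called with LPS against no LPS in the presence of 3′SL, were called with every library left out in turn. Under total counts Tnfrsf11a (lower) took the place of Tnfrsf1a in the first, and Tnfrsf1a was lost from the second. The genes called for LPS against PBS were then 1535 higher and 6655 lower, against 2613 and 2889, and for LPS + 3′SL against 3′SL 1352 and 4851, against 2051 and 2120. A minimum of 10 counts in every library left 7 members to be tested. Without the fold minimum, the counts for both 3′SL comparisons were 0 as well.

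Counts for the 3′SL comparisons, all 0 in the edgeR fit without the sets, moved with the test and the sets. For 3′SL against PBS, DESeq2 called 88 genes, the block 406 (1 member), and the block without set 1, 2, or 3 called 2, 3, and 323 (1 member without set 3). For LPS + 3′SL against LPS, DESeq2's size factors and total counts gave 1 gene each, all genes with at least 1 count 2, DESeq2 113 (1 member), the block 207 (3 members), and the block 1 without set 1 and 371 (5 members) without set 3. Leaving out 1 library gave 0 to 8 genes, the highest without the 3′SL library of set 3. For the interaction DESeq2 called 44 genes (2 members), the block 222 (2 members), and the block 1 without set 1 and 457 (5 members) without set 3. Each block fit without a set, that without set 3 included, has 4 libraries fewer. The cause of these differences was not tested.

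The sign changed only for values that were not called in the edgeR fit without the sets. Among these, Tnfrsf11a with LPS against PBS was called lower with total counts (−0.66). Tnf with 3′SL against PBS was called higher with the block without set 3 (0.63). With LPS against PBS, Tnfrsf11a was 0.0434 both with DESeq2's size factors and with DESeq2, 0.0011 with the block, 0.013 without set 1, and 0.073 without set 3, and −0.10 to 0.16 with 1 library left out. With 3′SL against PBS and the block, Tnfsf9 was −0.059 without set 1 and −0.14 without set 2, Tnfsf10 −0.21 and Tnfrsf11a 0.0066 without set 3. With 1 library left out, the ranges there were −0.30 to 1.41 for Tnf, −0.11 to 0.37 for Tnfsf9, −0.68 to 0.61 for Tnfsf10, −0.051 to 0.57 for Tnfrsf1b, and −0.18 to 0.13 for Tnfrsf11a. The lowest values of Tnf, Tnfsf10, and Tnfrsf1b were without the 3′SL library of set 3. Tnfsf13b was 0.21 without set 2 for LPS + 3′SL against LPS and 0.41 without set 1 for LPS + 3′SL against 3′SL (−0.32 to 0.41 with 1 library left out). Tnfrsf1a ranged from −0.056 to 0.30 for LPS + 3′SL against LPS, and the Tnfsf10 interaction from −0.95 to 0.33. Tnfrsf11a was −0.21 with total counts for LPS + 3′SL against 3′SL.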
